A study of Mus musculus with 6 samples.

Results

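The genes described here encode the integrins, the laminin chains and the other basement membrane proteins and receptors that tie vessel wall cells to their matrix. The set holds 37 listed genes: 12 integrin alpha subunits, 6 integrin beta subunits, 10 laminin chains, 2 nidogens, the proteoglycans perlecan (Hspg2) and agrin (Agrn), and dystroglycan (Dag1) with 4 sarcoglycans. All 37 were measured, each through a single probe set, out of 19938 genes in all. They were followed in the ascending aorta (3 arrays) and the descending aorta (3 arrays) of mouse embryos that were wild-type, on a C57BL/6 background, untreated and aged 13.5 days postcoitum. Primary tissue was used, so each array may hold RNA of several cell types, and the labels name no embryo, litter or pool behind a replicate. The comparison addressed the different embryonic origins of aortic smooth muscle, largely cardiac neural crest in the ascending and mesoderm in the descending aorta. Values are log2 expression, and all differences are ascending minus descending. With no such detail, each p-value reflects only how much these samples differ among themselves, and with 3 arrays a segment the precision is low.

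Laminins are trimers of an alpha, a beta and a gamma chain that polymerise into the sheet of a basement membrane. Nidogens and perlecan link that sheet to collagen IV, and the alpha chain carries the main sites for cell receptors. The receptors are integrins, each an alpha with a beta subunit, and dystroglycan, which sits in the dystrophin complex together with the sarcoglycans. In the vessel wall, smooth muscle cells and endothelium each lie on basement membrane, and integrins also hold the cells to collagens, fibronectin and elastic fibres.

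Promoters are shown for 3 genes whose values are described below. Itga1 and Itga2, which encode collagen-binding subunits with lower means in ascending aorta, are direct neighbours on chromosome 13 in the RefSeq gene table of GRCm38.p6, the only such pair among the members. Itgb8 had the highest positive difference of the set. The 250 bases before the start of transcription are given 5′ to 3′ on the gene's strand, from RefSeq on GRCm38.p6. They lie at chr13:115101965-115102214 for Itga1, chr13:114932101-114932350 for Itga2 and chr12:119238277-119238526 for Itgb8, all on the minus strand.

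Itga1: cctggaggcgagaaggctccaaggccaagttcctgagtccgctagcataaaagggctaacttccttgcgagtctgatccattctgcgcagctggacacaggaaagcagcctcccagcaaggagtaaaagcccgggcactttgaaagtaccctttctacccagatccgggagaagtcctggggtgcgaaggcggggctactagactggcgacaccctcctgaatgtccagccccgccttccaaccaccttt
Itga2: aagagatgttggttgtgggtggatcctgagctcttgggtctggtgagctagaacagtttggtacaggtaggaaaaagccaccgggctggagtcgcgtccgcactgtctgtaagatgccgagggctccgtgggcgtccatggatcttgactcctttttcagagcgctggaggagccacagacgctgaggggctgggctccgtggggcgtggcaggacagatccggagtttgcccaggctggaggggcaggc
Itgb8: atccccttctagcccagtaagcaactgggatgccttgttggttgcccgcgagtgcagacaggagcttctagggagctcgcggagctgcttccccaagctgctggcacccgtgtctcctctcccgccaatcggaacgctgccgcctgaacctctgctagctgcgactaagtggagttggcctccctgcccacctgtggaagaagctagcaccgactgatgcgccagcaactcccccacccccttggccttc

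Promoters of 26 members were taken from that table, in 31 windows of this length, and members on a single chromosome were left out. The windows were searched on both strands for 5 motifs of muscle and general promoters. A gene was counted if any of its windows matched, while the share over all promoters is per window and keeps that chromosome. No letters stand in capitals above because none of the 5 was found in these 3 windows. A CArG box, the site of serum response factor in smooth muscle genes, was found in 2 of the 26 genes, Itgb6 and Lama2, and in 1.47% of 32851 promoters. The Lama2 match lies 39 to 30 bases before the start and is shown in capitals within 30 bases at chr10:27616962-27616991 (minus strand), because Lama2 was the laminin alpha gene with the largest positive difference.

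Lama2: aaccaaggacCCTTTAAAGGcccaggcctg

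The muscle motif MCAT, searched as GGAATG, was found in the windows of 5 of 26 genes and in 12.6% of all promoters. The AP-1 motif, searched as TGANTCA, was found in those of 0 genes and in 6.75% of all promoters. The GC box motif, searched as GGGCGG, was found in those of 13 genes and in 32.7% of all promoters. The TATA motif, searched as TATAAA, was found in those of 1 gene and in 12.4% of all promoters. A match or its absence describes these letters only.

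Before the results, some arrays need a word. Ascending replicate 3 lay with the descending arrays across all genes, with a mean correlation of 0.996 with them against 0.988 with the other ascending arrays. Descending replicate 1 was the highest of the descending arrays for 25 of the 37 members (67.6%) and for 49.0% of all genes. Ascending replicate 2 had the lowest of the weights that limma estimated per array, at 0.57. Descending replicate 1 had 0.58 and ascending replicate 3 had 0.63, while the other arrays had 1.49 to 1.82. Ascending replicates 1 and 2 are thus not a uniform pair. The smooth muscle marker list had mean levels of 10.44 to 11.05 in ascending and 10.54 to 10.63 in descending aorta, and its genes went both ways, with a lower mean for 5 of 10. Smooth muscle actin (Acta2) differed by -0.022, Des by 1.41, Synpo2 by 1.19, Myh11 by -0.53 and Mylk by -0.27. All ascending arrays lay below all descending arrays for Myh11 and Mylk, and for 8.95% of all genes. Without ascending replicate 3, 3 genes of the list were higher at an adjusted p under 0.05 by limma, where 2.07% of all genes were. Marker lists of other cell types differed between the segments. For comparison, 56.2% of all genes had a lower mean in ascending aorta. At an unadjusted p below 0.05, 5.33% of all genes were lower and 3.96% higher. All 9 genes of the mesothelium and epicardium list had a higher mean in ascending aorta, 8 with an unadjusted p below 0.05, and the list's mean level was 8.88 to 10.14 in ascending and 8.39 to 8.78 in descending aorta. All 12 endothelial genes had a lower mean and 8 had an unadjusted p under 0.05, with mean levels of 10.38 to 10.90 in ascending and 10.99 to 11.16 in descending aorta. All 10 heart muscle markers had a higher mean, 4 with an unadjusted p below 0.05. Of 11 macrophage and leukocyte markers 10 had a lower mean, 1 with an unadjusted p below 0.05. Their median difference was -0.21, with ascending replicate 2 the lowest array at -0.92 from the descending mean. Of 7 Schwann cell and neuron markers 6 had a lower mean, none of them with an unadjusted p below 0.05, and 1 had a higher mean with such a p. The part of these cell types in the members' values was not tested. Array values have no zero and no detection calls were used, so no marker could be called absent. In such bulk samples fewer cells of a type and less RNA per cell cannot be told apart.

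**Figure D1:**
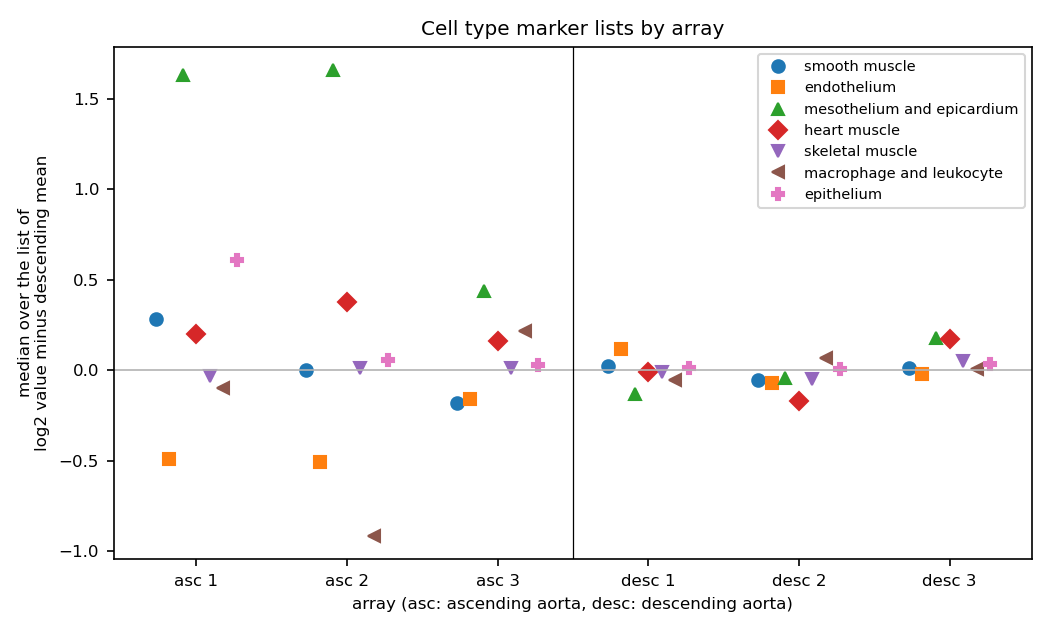
Median over each marker list of the log2 value minus the mean of the descending arrays (y axis) on each of the 6 arrays (x axis), with 1 symbol per list. Mesothelial and epicardial markers stand at 1.63 and 1.66 on ascending replicates 1 and 2 and at 0.44 on replicate 3, while endothelial markers stand at -0.49, -0.51 and -0.16.

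As a set, these genes leaned toward lower values in ascending aorta. All 4 collagen-binding alphas, all 3 RGD-binding alphas, both nidogens and both proteoglycans had lower means, as did 6 of 10 laminin chains. The mean was lower in ascending aorta for 27 of the 37 members (73.0%), where 56.2% of all genes had a lower mean. The median difference was -0.17 over the members and -0.021 over all genes, and it was -0.094 over the members without descending replicate 1. No member passed an adjusted p of 0.05 in limma over all 6 arrays, and no gene on the array did (0 of 19938, or 0%). At an unadjusted p under 0.05, 11 members were lower (29.7%, against 5.33% of all genes) and 1 was higher (2.70%, against 3.96%). The ascending arrays lay entirely below the descending arrays for 10 members (27.0%, against 8.95% of all genes) and entirely above them for 0 members, against 5.87%. The members were also brighter than most genes, with mean levels of 9.75 to 10.01 across arrays against 7.82 to 7.87 over all genes. The shares over all genes include many dim genes and are not matched for level. These members share arrays and cell types, so the counts describe the set and are no test of it.

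**Figure D2:**
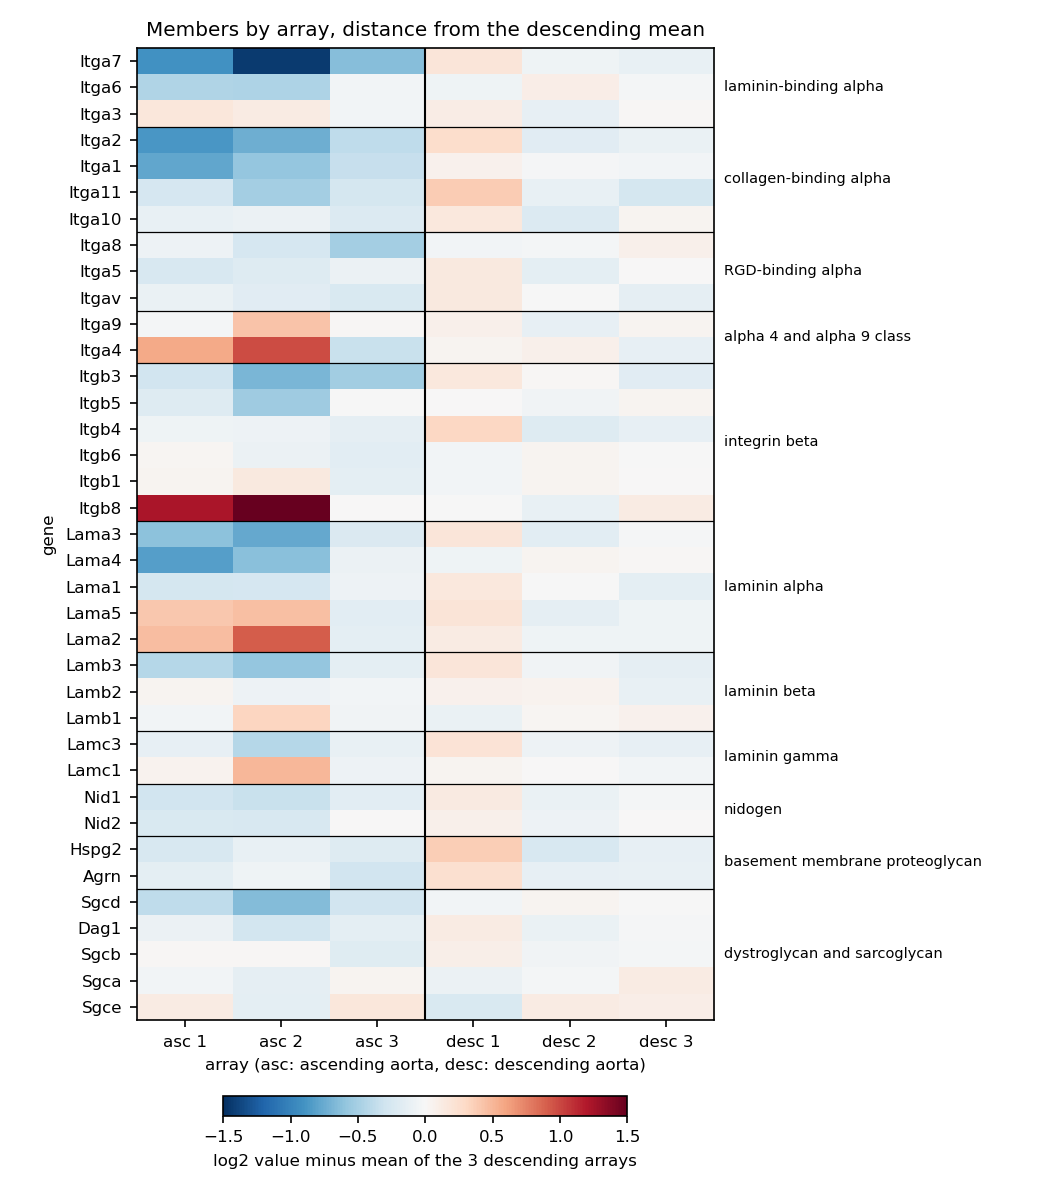
Each row is a gene, grouped by role, and each column an array; colour gives the log2 value minus the mean of the descending arrays, on a scale that ends at -1.5 and 1.5. Ascending replicates 1 and 2 carry the strongest colours, from Itga7 on the low side to Itgb8 on the high side, and replicate 3 is paler in most rows.

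Measured from the mean of the descending arrays, the median member stood at -0.11 on ascending replicate 1, -0.17 on replicate 2 and -0.14 on replicate 3. Descending replicates 1, 2 and 3 stood at 0.11, -0.057 and -0.031. Each ascending array was thus lower by this median, but part of the distance rests on descending replicate 1, which raised the shared mean. Which genes stood out, and by how much, differed between replicate 3 and the others. Ascending replicates 1 and 2 both lay below all descending arrays for 15 members (40.5%, against 18.9% of all genes). They lay above all of them for 6 members (16.2%), which was close to the 15.6% of all genes. Of these 21 members, ascending replicate 3 lay beyond the descending range on the same side for 10, inside it for 7 and beyond it on the other side for 4. The 10 were all low members, and the 4 were Itga4, Lama2, Lama5 and Lamc1, all high on replicates 1 and 2. Over all genes, the shares of 18.9% and 15.6% came to 8.95% and 5.87% once replicate 3 had to lie on the same side. Some loss of this kind was thus seen over all genes too. Among the members it was uneven: 10 of the 15 low members kept their side on replicate 3, and 0 of the 6 high members did. Without ascending replicate 3, limma called 7 members lower (18.9%, against 2.61% of all genes) and 3 higher (8.11%, against 2.07%). Because its own values led to its omission, the p-values from the remaining 5 arrays are likely too small. The 7 lower members were Itga7, Itga1, Itga2, Itga6, Lama3, Lama4 and Sgcd, and the 3 higher were Itgb8, Itga4 and Lama2. With descending replicate 1 left out as well, 4 members passed as lower, namely Itga7, Itga1, Itga2 and Lama4 (10.8%, against 1.18% of all genes), and 2 as higher, Itgb8 and Lama5 (5.41%, against 1.17%).

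**Figure D3:**
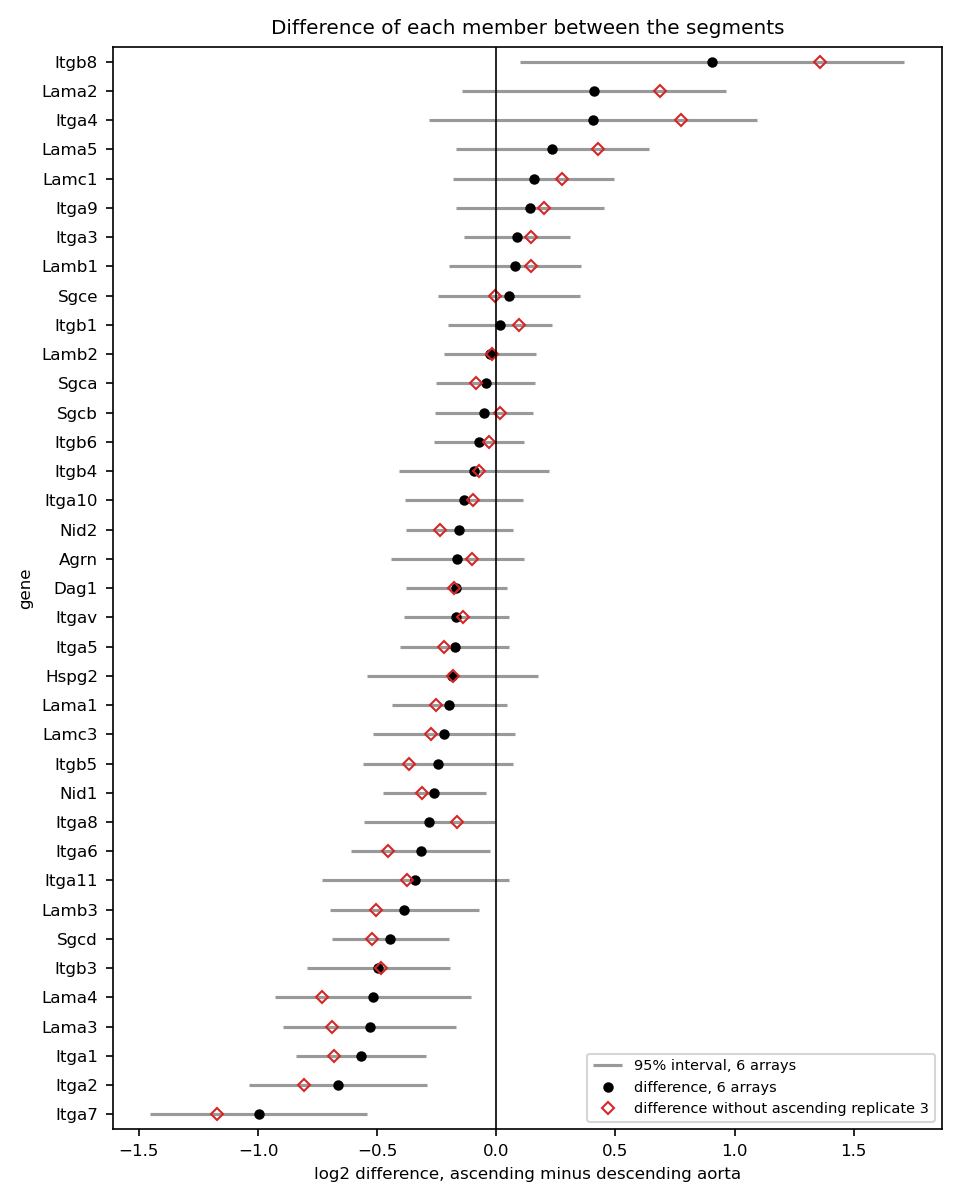
Log2 difference of each member, ascending minus descending aorta (x axis), with the 95% interval over 6 arrays as a line, the 6-array value as a filled point and the value without ascending replicate 3 as an open diamond. The 6-array differences run from 0.91 for Itgb8 to -0.997 for Itga7, and the diamonds lie further from 0 for most genes at both ends.

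Among the laminin-binding integrin alpha subunits, Itga7 was lower on every ascending array, Itga6 on ascending replicates 1 and 2, and Itga3 overlapped between the segments. Itga7, the laminin receptor subunit of skeletal, heart and smooth muscle, stood at 7.999, 7.47 and 8.27 in ascending aorta, against 9.09, 8.84 and 8.80 in descending aorta. The groups did not overlap, and ascending replicate 3 lay between the other ascending arrays and the descending ones. The difference was -0.997 ± 0.20 (SE), a 2.00-fold lower level, at an adjusted p of 0.53 by limma over 6 arrays and 0.00785 without ascending replicate 3. The 13 skeletal muscle markers had mean levels of 6.91 to 7.11 in ascending and 6.92 to 7.07 in descending aorta, and none had an unadjusted p under 0.05. Itga6, a laminin receptor subunit of endothelium and epithelia, stood at 9.69, 9.68 and 10.10 in ascending aorta, against 10.08, 10.24 and 10.11 in descending aorta. Ascending replicates 1 and 2 were low and replicate 3 lay inside the descending range. Its difference was -0.32 ± 0.13 (SE), and without ascending replicate 3 it was -0.45 (adjusted p = 0.0355 by limma). Endothelial markers were low on the same arrays, and their part in the Itga6 values was not tested. Itga3, which binds the laminin alpha 3 and alpha 5 chains, stood at 9.45, 9.41 and 9.25 in ascending aorta, against 9.39, 9.16 and 9.30 in descending aorta. These ranges overlapped, with a difference of 0.086 and a 95% interval from -0.14 to 0.31.

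The collagen-binding alpha subunits all had lower means in ascending aorta, with a median difference of -0.45 over the 4 genes. Itga1, a collagen IV receptor subunit of smooth muscle and mesenchyme, stood at 8.82, 9.03 and 9.26 in ascending aorta, against 9.67, 9.58 and 9.56 in descending aorta. Itga2, its neighbour in the genome and a receptor subunit for fibrillar collagen, stood at 8.41, 8.55 and 8.90 in ascending aorta, against 9.55, 9.12 and 9.18 in descending aorta. For both genes the groups did not overlap, and ascending replicate 3 was the highest of the ascending arrays. Itga1 differed by -0.57 ± 0.12 and Itga2 by -0.67 ± 0.16 (SE, adjusted p = 0.53 for each by limma). Without ascending replicate 3 the levels were 1.60-fold and 1.75-fold lower (adjusted p = 0.00954 and 0.0193 by limma). Itga11, a receptor subunit for fibrillar collagen on mesenchymal cells, and Itga10, known from cartilage, overlapped between the segments, with differences of -0.34 and -0.14. Itga11 was highest on descending replicate 1, at 9.81, and differed by -0.15 without that array.

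The alpha subunits that bind the RGD sequence of fibronectin and related ligands had small differences. Itga8, a subunit of smooth muscle and mesenchyme that binds nephronectin, stood at 9.60, 9.43 and 9.17 in ascending aorta, against 9.64, 9.65 and 9.75 in descending aorta. The groups did not overlap, and this time ascending replicate 3 was the lowest array, so the difference of -0.28 came to -0.16 without it (adjusted p = 0.477 by limma). Itga5, the fibronectin receptor subunit, and Itgav, the shared partner of Itgb3, Itgb5, Itgb6 and Itgb8, differed by -0.17 each, with intervals that reached 0.052. Itga4 and Itga9 form a class of their own. Itga4, which binds Vcam1 and fibronectin and which mouse epicardium needs to attach to the heart, stood at 10.76, 11.18 and 9.86 in ascending aorta, against 10.23, 10.27 and 10.07 in descending aorta. Ascending replicates 1 and 2 were the highest arrays and replicate 3 the lowest of all 6, so the difference was 0.41 ± 0.30 (SE) over 6 arrays and 0.77 ± 0.14 without that array (adjusted p = 0.0199 by limma). Without ascending replicate 2 it was 0.12. Mesothelial and epicardial markers were high on the same 2 arrays, and their part in the Itga4 values was not tested. Itga9, a receptor subunit for tenascin C and Svep1, differed by 0.14 and overlapped between the segments.

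The beta subunits split. Itgb8, which with alpha v activates latent TGF-beta, stood at 9.44, 9.72 and 8.23 in ascending aorta, against 8.22, 8.11 and 8.34 in descending aorta. Ascending replicates 1 and 2 lay more than 1 log2 unit above every descending array, and replicate 3 lay inside the descending range. The difference was 0.91 ± 0.35 (SE) over 6 arrays, and without ascending replicate 3 it was 1.36 ± 0.12, a 2.56-fold higher level (adjusted p = 0.00114 by limma). Itgb3, the alpha v partner also found on platelets, stood at 9.75, 9.35 and 9.52 in ascending aorta, against 10.19, 10.05 and 9.86 in descending aorta. All ascending arrays were lower, replicate 3 included, by -0.49 ± 0.13 (SE). The adjusted p by limma was 0.53 over 6 arrays and 0.127 without ascending replicate 3. Itgb5, another alpha v partner, averaged 11.77 ± 0.27 in ascending and 12.01 ± 0.044 in descending aorta (SD, n = 3 each), with ascending replicate 3 at 12.01. Its difference of -0.24 was -0.096 without ascending replicate 2. On each array the Itgb8 value was also set against the Itgb3 value, a choice made after the values were seen. Relative to the descending mean, Itgb8 minus Itgb3 was 1.51, 2.18 and 0.52 in ascending aorta, against -0.16, -0.13 and 0.29 in descending aorta. These ranges did not overlap, but the 2 genes are the beta subunits with the highest and lowest differences. On ascending replicate 3 Itgb8 stood at 0.0037 from its descending mean and Itgb3 at -0.52, so the distance there came from Itgb3. Itgb1, the common partner of most alpha subunits here, stood at 11.82, 11.93 and 11.64 in ascending aorta, against 11.73, 11.83 and 11.78 in descending aorta. It differed by 0.015, with a 95% interval from -0.20 to 0.23. Itgb4, the hemidesmosome subunit, stood at 8.9995, 8.99 and 8.93 in ascending aorta, against 9.38, 8.88 and 8.94 in descending aorta, where only replicate 1 was high. Itgb6, an epithelial subunit, lay at 4.91 to 5.10 in ascending and 5.03 to 5.11 in descending aorta, and was the only member whose mean was under the 25th percentile of gene means.

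The laminin alpha chains also split, with Lama4, Lama3 and Lama1 lower and Lama2 and Lama5 higher by their means in ascending aorta. Lama4, a chain of endothelial and smooth muscle basement membrane, stood at 10.34, 10.53 and 11.08 in ascending aorta, against 11.10, 11.21 and 11.18 in descending aorta. The groups did not overlap, but ascending replicate 3 lay just below the lowest descending array, and the difference of -0.52 ± 0.18 (SE) became -0.73 ± 0.10 without it (adjusted p = 0.0071 by limma). Lama2, the chain of muscle and Schwann cell basement membrane, stood at 9.98, 10.43 and 9.38 in ascending aorta, against 9.65, 9.46 and 9.45 in descending aorta. Ascending replicates 1 and 2 were the highest arrays and replicate 3 the lowest, giving 0.41 ± 0.24 (SE) over 6 arrays and 0.69 ± 0.14 without it (adjusted p = 0.0371 by limma). Without ascending replicate 2 the Lama2 difference was 0.16. Taken array by array after the values were seen, Lama2 minus Lama4 relative to the descending mean was 1.29, 1.55 and -0.055 in ascending aorta, against 0.19, -0.10 and -0.084 in descending aorta. The balance of these chains stood apart on ascending replicates 1 and 2 only. Endothelial markers were low and mesothelial and epicardial markers high on the same arrays, as they were for Itgb8, and their part in these values was not tested.

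Lama5, a chain of endothelial and epithelial basement membranes, stood at 10.17, 10.22 and 9.62 in ascending aorta, against 9.97, 9.64 and 9.70 in descending aorta. It again had its highest values on ascending replicates 1 and 2, with a difference of 0.23 ± 0.17 (SE). That difference was 0.43 without ascending replicate 3, 0.12 without replicate 2 and 0.15 without replicate 1. Lama3, the alpha chain of the epithelial laminin of hemidesmosomes, stood at 7.57, 7.42 and 7.97 in ascending aorta, against 8.36, 8.02 and 8.16 in descending aorta. Its partner Lamb3 stood at 7.63, 7.48 and 7.91 in ascending aorta, against 8.24, 8.01 and 7.93 in descending aorta. Both chains were lower on every ascending array, by -0.53 ± 0.16 and -0.39 ± 0.13 (SE). For Lamb3, however, ascending replicate 3 lay just below the lowest descending array, and the difference was -0.30 without descending replicate 1. Without ascending replicate 3 the adjusted p by limma was 0.0192 for Lama3 and 0.0583 for Lamb3. Of the 12 epithelial markers 10 had a higher mean in ascending aorta. Of these, 3 had an unadjusted p under 0.05, where 3.96% of all genes were higher at that p. Mean levels of the list were 7.11 to 7.65 in ascending and 7.03 to 7.12 in descending aorta. Lama1, a chain of early embryonic basement membranes, stood at 7.24, 7.25 and 7.42 in ascending aorta, against 7.66, 7.49 and 7.35 in descending aorta, and the groups overlapped.

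The beta and gamma chains that most laminins share differed less. Lamc1, the gamma chain of nearly all vascular laminins, stood at 11.32, 11.76 and 11.18 in ascending aorta, against 11.30, 11.27 and 11.22 in descending aorta, with a single high array, ascending replicate 2. Its difference was 0.16 with a 95% interval from -0.18 to 0.50. Lamb1 and Lamb2, the usual beta chains, differed by 0.079 and -0.026, and the minor gamma chain gene Lamc3 by -0.22, with overlap in each case.

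Nidogens and proteoglycans had lower means in ascending aorta by small amounts. Nid1 stood at 12.15, 12.11 and 12.28 in ascending aorta, against 12.58, 12.34 and 12.41 in descending aorta, without overlap. It differed by -0.26 ± 0.093 (SE), with an adjusted p of 0.160 by limma without ascending replicate 3. Nid2 stood at 11.27, 11.26 and 11.51 in ascending aorta, against 11.57, 11.42 and 11.51 in descending aorta, where ascending replicate 3 lay inside the descending range. Perlecan (Hspg2) stood at 11.87, 11.996 and 11.92 in ascending aorta, against 12.48, 11.87 and 11.99 in descending aorta. Agrn stood at 11.55, 11.63 and 11.41 in ascending aorta, against 11.93, 11.56 and 11.58 in descending aorta. Both proteoglycan genes were highest on descending replicate 1, and their differences of -0.18 and -0.16 were -0.0020 and -0.045 without that array.

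In the dystroglycan complex only Sgcd was lower on every ascending array. Sgcd, the delta subunit found in smooth as well as striated muscle, stood at 8.87, 8.60 and 8.96 in ascending aorta, against 9.22, 9.30 and 9.25 in descending aorta. The groups did not overlap, the difference was -0.44 ± 0.11 (SE), and without ascending replicate 3 the level was 1.44-fold lower (adjusted p = 0.0349 by limma). Dag1, the laminin receptor of the complex, stood at 11.51, 11.32 and 11.45 in ascending aorta, against 11.71, 11.49 and 11.57 in descending aorta. These groups overlapped, and Dag1 differed by -0.17 with a 95% interval from -0.38 to 0.046. Sgca, the alpha subunit of striated muscle, stood at 7.44, 7.35 and 7.52 in ascending aorta, against 7.40, 7.45 and 7.61 in descending aorta. Sgcb, the partner of delta, stood at 9.77, 9.78 and 9.58 in ascending aorta, against 9.85, 9.70 and 9.73 in descending aorta. Sgce, the epsilon subunit, which takes the place of alpha outside striated muscle, stood at 10.91, 10.64 and 10.95 in ascending aorta, against 10.55, 10.90 and 10.88 in descending aorta. These 3 subunits overlapped between the segments, with differences between -0.050 and 0.053.

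When receptors and linkers were set beside their laminin or matrix partners, 12 of 21 pairs had lower means for both genes, 2 had higher means for both and 7 ran opposite ways. Each pair is counted by the sign of its means, many of which were close to 0, and genes recur in several pairs. As 73.0% of the members had a lower mean, many pairs would be lower for both genes without any link between partners. The pair counts are therefore no test of such a link. Both genes had an unadjusted p under 0.05 in the pairs of Itga7 with Lama4 and Itga6 with Lama4. Itga7 with Lama2, the other chain it binds in muscle, ran opposite ways at -0.997 and 0.41, and Itga6 with Lama5 at -0.32 and 0.23. Dag1 stood at -0.17 beside Lama2 at 0.41, Hspg2 at -0.18 and Agrn at -0.16. Itga3 was at 0.086 beside Lama5 at 0.23 and Lama3 at -0.53. The epithelial set of Itgb4, Lama3 and Lamb3 stood at -0.092, -0.53 and -0.39. The nidogens, at -0.26 and -0.16, stood beside Lamc1, the chain they bind, at 0.16.

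**Figure D4:**
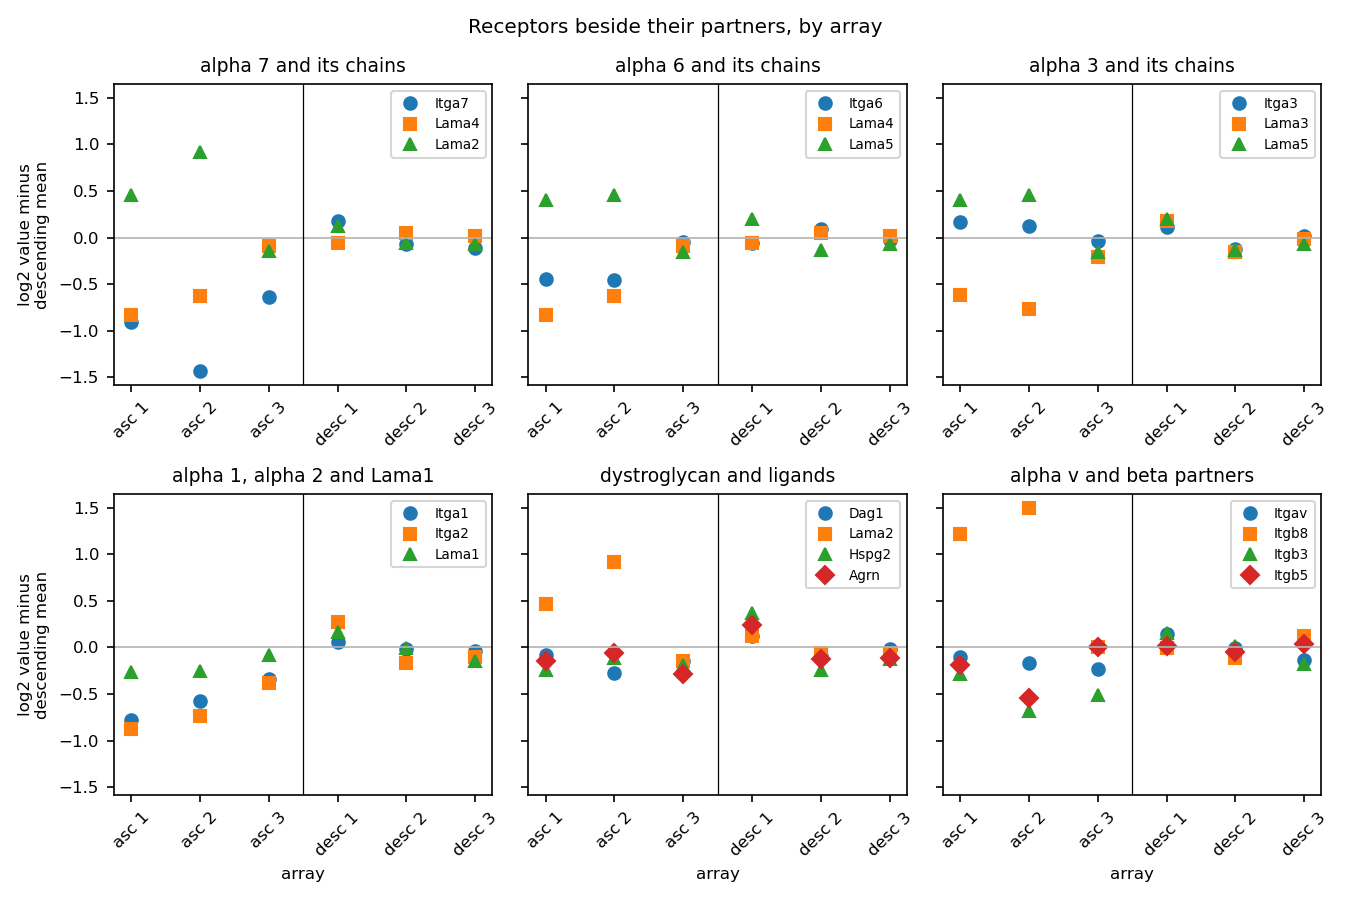
Log2 value minus the mean of the descending arrays (y axis) on each of the 6 arrays (x axis) for receptors and their partners, with 1 symbol per gene. Itga7 and Lama4 are low together on ascending replicates 1 and 2, where Lama2, Lama5 and Itgb8 are high, and on ascending replicate 3 Itga7, Itga1, Itga2 and Itgb3 stay low while Lama4, Lama2 and Itgb8 lie near 0.

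Genes around this system were read from 6 further lists. Among 20 measured genes that link integrins to actin, such as talins, vinculin and kindlins, 0 had an unadjusted p under 0.05 (limma, 0 with an adjusted p under 0.05), 10 had a lower mean, and the median difference was 0.0022. The smallest p values were those of the adaptor Bcar1 at -0.18, Lims2 at -0.39, Fermt1 at 0.16 and Fermt3 at -0.22. Of 12 measured ligands other than laminins, 11 had a lower mean, where 56.2% of all genes did, and 6 were lower at an unadjusted p under 0.05, where 5.33% of all genes were. Their median difference was -0.35. Ccn2 differed by -0.43 ± 0.12, Vcam1, the ligand of alpha 4, by -0.74 ± 0.25, Postn by -0.45 ± 0.17 and Svep1, a ligand of alpha 9, by -0.88 ± 0.35 (SE). Vcam1 is also an endothelial gene, and the part of endothelium in its values was not tested. Svep1 stood at 8.77, 8.61 and 10.06 in ascending aorta, against 10.16, 9.94 and 9.99 in descending aorta, so ascending replicate 3 again lay with the descending arrays.

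Of 19 other basement membrane genes, 2 were lower and 2 higher at an unadjusted p under 0.05, where 5.33% and 3.96% of all genes were, and the median difference was -0.079. Col4a5 stood at 8.23, 8.27 and 7.81 in ascending aorta, against 7.61, 7.66 and 7.73 in descending aorta, and Col4a6 differed by 0.24. Col4a2, a chain of the widespread collagen IV trimer, stood at 9.56, 9.61 and 10.03 in ascending aorta, against 10.18, 9.98 and 10.01 in descending aorta. All ascending arrays lay above all descending arrays for Col4a5, though replicate 3 lay nearer to the descending arrays than to the other ascending arrays. For Col4a2 replicate 3 lay inside the descending range. Frem1, an extracellular matrix protein of epithelial basement membranes, differed by -1.35 ± 0.53 (SE). It stood at 8.20, 7.02 and 9.50 in ascending aorta, against 9.79, 9.52 and 9.46 in descending aorta. Its groups overlapped, with ascending replicate 3 inside the descending range. Of 11 other dystrophin complex genes, 7 other laminin-binding receptors and 8 integrin genes of blood cells, 0 had an unadjusted p under 0.05 by limma (0 adjusted), with medians of 0.044, 0.045 and -0.047. The smallest p values in these lists were those of Cav3, the muscle caveolin, at 0.39, the syndecan Sdc4 at 0.26 and the leukocyte subunit Itgal at -0.31.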

How the data were processed

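Total RNA of aortic tissue was isolated by Trizol, and biotinylated cRNA was made for Affymetrix arrays, per the labels' protocols. The values are log2 expression per probe set, deposited by the authors. Their names for the software, per the submitters' processing notes, are Partek 6.6 and RMA. Settings were not listed there, and a genome build is not given in the sources used here. RMA makes the arrays' distributions alike, so a shift of most genes cannot be seen, and it shrinks differences of dim genes. The array medians were 7.14 to 7.22.

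Probe sets were named from the platform's annotation. Of 35556, 21789 had 1 symbol, 1621 several and 12146 none, and for each gene the single-symbol probe set with the highest mean was kept, which left 19938 genes. The symbols of all 37 members matched RefSeq through the Entrez number. No filter on dim genes was applied. The segments were compared with limma 3.58.1 (lmFit, eBayes) in R 4.3.3 on all 6 arrays, two-sided, and p-values were adjusted by Benjamini-Hochberg over the 19938 genes (threshold 0.05). Exact permutation of 3 arrays against 3 has 0.1 as its smallest p and was not run. Python 3.11.15, pandas 2.3.3 and matplotlib 3.10.9 made tables and plots.

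The members, lists and pairs were chosen with earlier results of these data known, so no test over the members was made. By the rule for named genes, values of every array were given for the 12 members with the smallest unadjusted p and for the genes of each pair, and other lists are represented by up to 4 members with the smallest p. Itga4, the smooth muscle markers and the array values of Svep1, Col4a5, Col4a2 and Frem1 were added after their values were seen. Alternatives were 2 normalizations, a filter, the mean of probe sets, another variance estimate, weights per array, a block for the replicate number, and leaving out each array. On simulated arrays of 19938 genes with 200 changed, the 6-array fit recovered 82.4% of genes changed by 1 log2 unit and 97.2% of those changed by 2, with 4.67% false calls. Genes were simulated independently, with 1 spread per gene for both segments, taken from the real arrays. No simulated array lay with the other segment across genes, as ascending replicate 3 did. The recovery rates therefore need not hold for the real arrays.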

Additional observations from a re-analysis of the deposited data

How the results depend on the processing

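With repeated quantile normalization, median-centring, the 25th percentile filter, the mean of probe sets, a variance trend, array weights and the replicate block, 0 genes and 0 members passed, as over all 6 arrays. Leaving out 1 array gave 0 to 933 genes and 0 to 10 members, with calls only without ascending replicate 3. With descending replicate 1 left out too, an alternative added after seeing the data, 469 genes and 6 members passed, and 1852 genes and 12 members had an unadjusted p below 0.05 over all 6 arrays. The members' median difference ranged from -0.22 to -0.094 when 1 array was left out, and the count of members with a lower mean was 23 to 31 over all alternatives.

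Signs of members near 0 turned in some settings. With median-centring Lamb2 was at 0.0032, and with array weights Lamb2 was at 0.014 and Itgb4 at 0.0090. With both arrays left out Agrn was at 0.015, Hspg2 at 0.0011, Itgb4 at 0.087, Lamb2 at 0.014, Sgcb at 0.058 and Sgce at -0.12. Leaving out 1 array gave -0.00093 to 0.22 for Itga9, -0.052 to 0.093 for Itgb1, -0.19 to 0.066 for Itgb4, -0.045 to 0.14 for Lamb1, -0.081 to 0.0043 for Lamb2, -0.013 to 0.28 for Lamc1, -0.089 to 0.015 for Sgca, -0.083 to 0.014 for Sgcb and -0.060 to 0.15 for Sgce. The cause was not tested.

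Replicate numbers are shared between the segments, but same-numbered arrays did not deviate together (correlations of -0.080, -0.055 and 0.024), and no ascending array correlated best with its own number. With the replicate number as a block 0 genes passed, with a smallest adjusted p of 0.602. With 3 arrays a segment the block leaves every difference as it was, so the members' median of -0.17 there says nothing of stability. Signal over background limits dim genes such as Itgb6, and no background values were used here.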
